A study of Mus musculus with 6 samples.

Results

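The 9 genes described here carry the type I interferon signal from the cell surface to the nucleus and were followed in ADC106 cells, a mouse angiosarcoma line, meaning a malignant tumour of vessel-lining cells. They are the receptor chains Ifnar1 and Ifnar2, the kinases Jak1 and Tyk2, the transcription factor Stat2, and the interferon regulatory factors Irf1, Irf3, Irf7 and Irf9. They were chosen by symbol from a table of 55401 mouse genes, and all 9 had enough reads to be tested. The cells, labelled wild type (WT), had been transfected with a microRNA mimic at 12.5 nM, and their RNA was taken 3 days later. A mimic is a short synthetic RNA duplex that acts in place of a natural microRNA. One group received the mimic labelled NC and the other the miR-497 mimic, with 3 libraries in each group. ADC106 is 1 cell line, and untransfected cells were not analysed here. The labels do not say whether the 3 libraries of a group came from separate cultures, so p-values measure only the spread between these libraries.

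Type I interferons, the alpha and beta interferons among them, bind a receptor made of one Ifnar1 and one Ifnar2 chain. Tyk2 sits on Ifnar1 and Jak1 on Ifnar2; once brought together they phosphorylate Stat2, which joins Irf9 in the complex ISGF3. ISGF3 enters the nucleus, binds interferon-stimulated response elements and switches on antiviral genes. Irf3 and Irf7 act at the start of the circuit: activated by the kinases Tbk1 and Ikbke downstream of nucleic acid sensors, they switch on the interferon genes themselves. Irf1 drives many genes of antigen presentation. Irf3 is made constitutively in most cells, whereas Stat2, Irf1, Irf7 and Irf9 are themselves induced by interferon in many cell types.

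The sequence of the mimic is not given in the sources used here; the natural mouse miR-497a-5p is shown because its seed, the stretch that pairs with target transcripts, defines the sites searched for in these genes. RefSeq (build GRCm38.p6) places it on the forward strand at chr11:70234730-70234751, and the capitals mark the seed, bases 2 to 8.
miR-497a-5p: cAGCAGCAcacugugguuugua
A match was counted in the longest annotated 3' UTR of a gene (GENCODE M21, GRCm38) when it read TGCTGCT (7mer-m8), GCTGCTA (7mer-A1) or both overlapped as TGCTGCTA (8mer). In the 9 genes 4 matches were found, 1 each in Stat2, Irf1, Irf3 and Ifnar1, all on the forward strand. The stretches printed around them lie at chr10:128292038-128292060 (Stat2), chr11:53778069-53778091 (Irf1), chr7:45002347-45002368 (Irf3) and chr16:91505903-91505925 (Ifnar1). They are shown because these genes did not move alike; the capitals mark the match.
Stat2: tgtgaagctcTGCTGCTctaggc
Irf1: gggcctgctgTGCTGCTggtctt
Irf3: gccccactcaGCTGCTAccaat
Ifnar1: gaaggccctgTGCTGCTctctgt
The matches in Stat2, Irf1 and Ifnar1 are 7mer-m8 and the match in Irf3 is a 7mer-A1. A match is a description of the letters and does not show that the microRNA acts there.

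Between NC and miR-497, 5 of the 9 genes were lower, 2 were higher and 2 did not pass the test. Irf7 fell the most of the 9, by 2.87 on the log2 scale, followed by Stat2 (-1.99) and Irf9 (-1.21), while Irf1 (-0.54) and Irf3 (-0.51) fell by less. The receptor chains were slightly higher (Ifnar1 0.18 and Ifnar2 0.37), and the kinases Jak1 (-0.05) and Tyk2 (-0.00077) did not pass. All values are log2 fold changes of miR-497 over NC from edgeR's quasi-likelihood test, with p-values adjusted by Benjamini-Hochberg over the 14661 genes tested and a threshold of 0.05. Over all tested genes, 49.8% passed that threshold in either direction, 23.8% higher and 26.0% lower, so that a call alone does not set a gene apart in this experiment. A call with at least a 2-fold decrease was made for 5.19% of all genes, and 3 of the 9, Irf7, Stat2 and Irf9, had one. The median log2 fold change was -0.51 over the 9 genes and -0.02 over all genes tested.

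**Figure D1:**
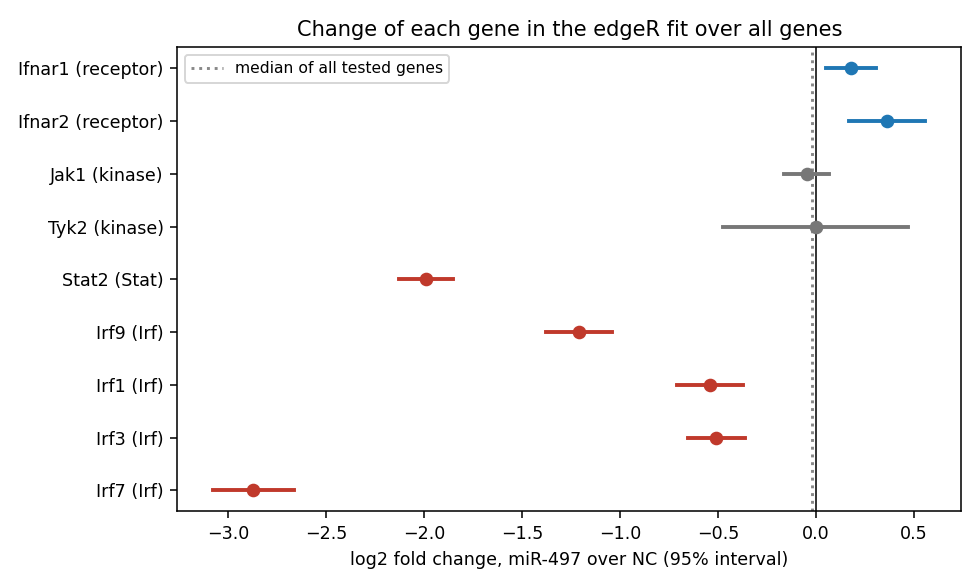
Log2 fold change of miR-497 over NC for each of the 9 genes (points) with its 95% interval (bars) from the edgeR fit over all genes; blue marks genes called higher, red genes called lower, grey genes that did not pass, and the dotted line is the median of all tested genes. The intervals of Irf7, Stat2 and Irf9 lie entirely below -1, those of Irf1 and Irf3 lie between -1 and 0, and the Tyk2 interval is the widest of the 9.

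Expression in single libraries is given as CPM, the gene's count relative to the library's total, with totals scaled by the TMM method (edgeR). Gene coordinates are those of GENCODE M21 on GRCm38. Ifnar1 (ENSMUSG00000022967, chr16:91485238-91507441, forward strand), the chain that carries Tyk2, measured 142.39, 147.54 and 166.09 CPM in NC libraries 1 to 3 and 166.84, 178.92 and 170.46 CPM in miR-497 libraries 1 to 3. The groups did not overlap, but the highest NC library and the lowest miR-497 library were less than 1 CPM apart. Mean CPM was 152 ± 12.5 (SD, n = 3) and 172 ± 6.20 (SD, n = 3). The log2 fold change was 0.18 (SE 0.0605, 95% interval 0.05 to 0.31, edgeR adjusted p = 0.0205). The call was lost without NC library 1 (0.12, adjusted p = 0.146), without NC library 2 (0.16, adjusted p = 0.123) and without miR-497 library 2 (0.15, adjusted p = 0.0878). Ifnar2 (ENSMUSG00000022971, chr16:91372783-91405589, forward strand), the chain that carries Jak1, measured 17.17, 16.24 and 17.05 CPM in NC and 23.87, 20.27 and 20.90 CPM in miR-497. Every miR-497 library was above every NC library. The log2 fold change of Ifnar2 was 0.37 (SE 0.0918, 95% interval 0.17 to 0.56, edgeR adjusted p = 0.0032). Of its exon bases, 9.46% are shared with Gm21970, a gene annotated on the same strand, and how such reads were assigned is not given in the sources used here.

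The kinases showed no difference that passed the test. Jak1 (ENSMUSG00000028530, chr4:101152367-101265282, reverse strand) measured 205.32, 215.08 and 225.58 CPM in NC and 213.32, 213.01 and 198.64 CPM in miR-497. The groups overlapped, and the interval of the log2 fold change, -0.16 to 0.07, leaves room for small changes in either direction (edgeR adjusted p = 0.496). Tyk2 (ENSMUSG00000032175, chr9:21104068-21131243, reverse strand) had the fewest reads of the 9, between 73 and 157 counts per library. It measured 3.83, 4.05 and 4.23 CPM in NC and 2.90, 4.0 and 5.15 CPM in miR-497. The lowest and the highest of its 6 values were both miR-497 libraries. The 95% interval of the Tyk2 log2 fold change, -0.47 to 0.47, leaves room for changes in either direction, and the sign of the fold change turned with the scaling. Part of the Tyk2 exons (8.07% of bases) faces 1700084C06Rik on the opposite strand, and whether the counting used strand is not given in the sources used here.

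Stat2 and Irf9, which act together in ISGF3, both fell. Stat2 (ENSMUSG00000040033, chr10:128270559-128292849, forward strand), the subunit that supplies the main activation domain, measured 167.37, 168.33 and 147.44 CPM in NC and 40.67, 41.90 and 39.01 CPM in miR-497. The miR-497 libraries lay within 3 CPM of each other and far below the lowest NC library. Mean CPM was 161 ± 11.8 (SD, n = 3) and 40.5 ± 1.45 (SD, n = 3). Stat2 was thus 3.97-fold lower, a log2 fold change of -1.99 (SE 0.0646, 95% interval -2.13 to -1.85, edgeR adjusted p = 5.1e-13). Irf9 (ENSMUSG00000002325, chr14:55603571-55610030, forward strand), the DNA-binding subunit, measured 96.17, 97.94 and 102.58 CPM in NC and 49.30, 40.76 and 38.49 CPM in miR-497. Its groups did not overlap, and miR-497 library 1 was the highest of the lower group. Irf9 was 2.31-fold lower, a log2 fold change of -1.21 (SE 0.0798, 95% interval -1.38 to -1.04, edgeR adjusted p = 2.5e-09).

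The factors that act on interferon genes fell by very different amounts. Irf7 (ENSMUSG00000025498, chr7:141262706-141266481, reverse strand), the amplifier of the alpha interferon response, measured 77.35, 88.36 and 72.64 CPM in NC and 10.15, 12.31 and 10.04 CPM in miR-497. These came from 2564, 3226 and 2045 counts in NC and 255, 391 and 306 counts in miR-497. Every miR-497 library was far below every NC library. Mean CPM was 79.4 ± 8.07 (SD, n = 3) and 10.8 ± 1.28 (SD, n = 3). Irf7 was thus 7.32-fold lower, a log2 fold change of -2.87 (SE 0.0971, 95% interval -3.08 to -2.67, edgeR adjusted p = 8.3e-13). Irf3 (ENSMUSG00000003184, chr7:44997648-45002848, forward strand), the factor that starts beta interferon transcription, measured 53.52, 55.95 and 51.68 CPM in NC and 36.25, 37.74 and 39.24 CPM in miR-497. Its groups did not overlap. Irf3 was 1.42-fold lower, a log2 fold change of -0.51 (SE 0.0686, 95% interval -0.65 to -0.36, edgeR adjusted p = 9.9e-06).

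Irf1 (ENSMUSG00000018899, chr11:53770014-53778374, forward strand), known as a tumour suppressor and as a driver of antigen presentation genes, measured 60.15, 62.23 and 53.92 CPM in NC and 42.38, 36.42 and 42.72 CPM in miR-497. Its groups did not overlap. Irf1 was 1.45-fold lower, a log2 fold change of -0.54 (SE 0.0793, 95% interval -0.71 to -0.37, edgeR adjusted p = 2.5e-05). Of their exon bases, Irf1, Irf3 and Irf7 share 3.40%, 2.56% and 1.19% with a gene on the opposite strand, and Irf9 shares 2.28% with Rnf31 on the same strand. In all, the groups did not overlap for 5 lower and 2 higher genes of the 9, where 29.6% and 27.8% of all tested genes had groups apart in these directions and 57.4% in either. The 5 lower calls were made under every scaling, filter and test tried and without each single library. In RNA from whole cultures, fewer cells that express a gene and less of its RNA per cell cannot be told apart.

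**Figure D2:**
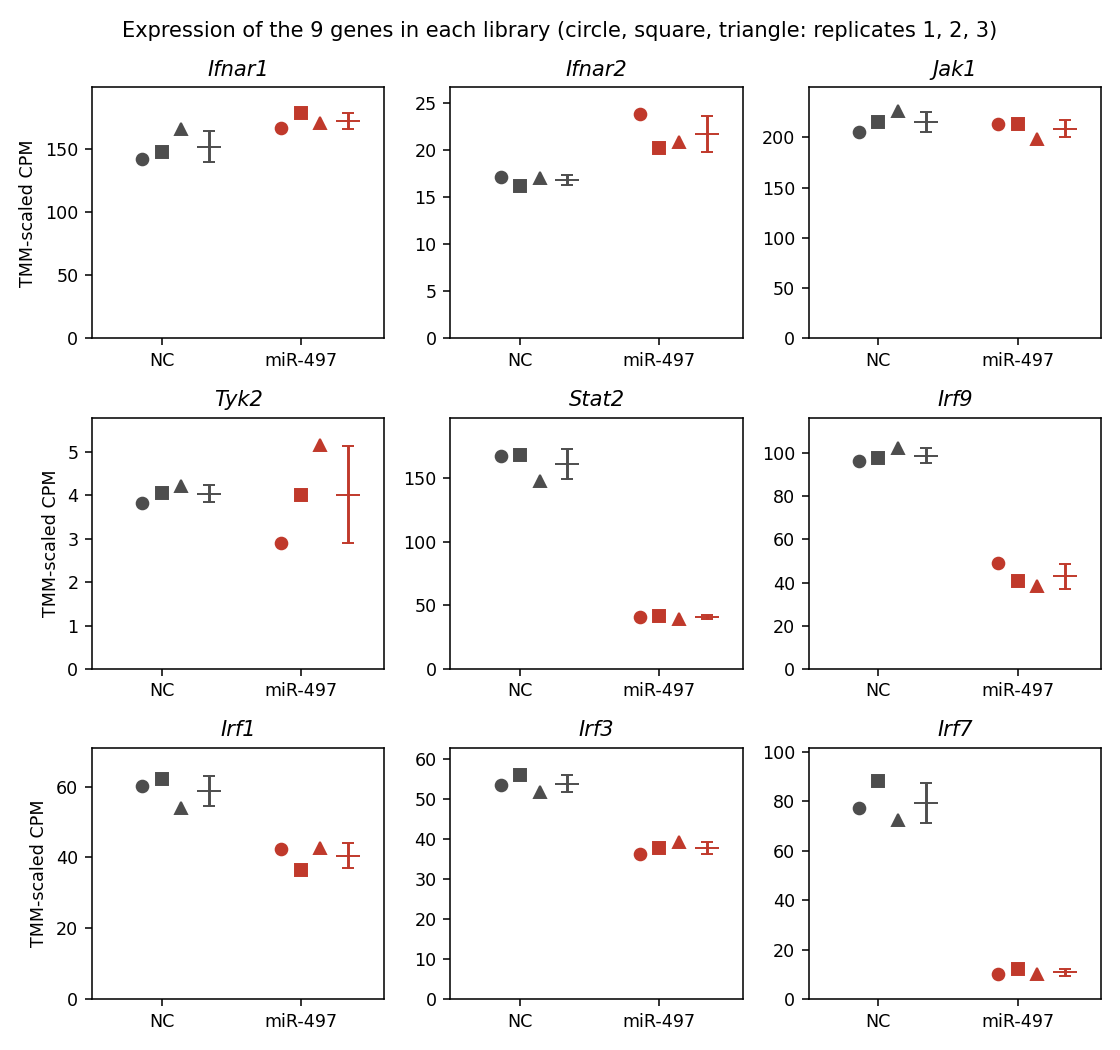
TMM-scaled CPM of each gene in every library; circles, squares and triangles are replicates 1, 2 and 3, grey is NC, red is miR-497, and the cross and bars show the mean and the SD of 3 libraries on an axis that starts at 0. The groups are apart for all panels except Jak1 and Tyk2, and Ifnar1 shows the narrowest gap of the others, between 166.09 and 166.84 CPM.

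Levels of different genes were compared as CPM per kilobase of exon, where exon length joins the exons of all annotated transcripts of a gene. This length can exceed that of the transcripts present. For Irf7 it was 3776 bases, the whole annotated gene from start to end. The order between genes therefore depends on the annotation. In NC cells the order from high to low was Jak1 (29.8 ± 1.40, SD, n = 3), Stat2 (27.2 ± 1.99), Ifnar1 (25.6 ± 2.10), Irf7 (21.0 ± 2.14), Irf9 (18.4 ± 0.614), Irf3 (15.6 ± 0.623), Irf1 (14.8 ± 1.09), Ifnar2 (5.05 ± 0.151) and Tyk2 (0.588 ± 0.0289). The libraries of Stat2 and Ifnar1, and those of Irf3 and Irf1, overlapped, so their order is not resolved. Jak1 and Stat2 were barely apart, with the lowest Jak1 library at 28.410 and the highest Stat2 library at 28.405. In miR-497 cells Ifnar1 (29.0 ± 1.04) and Jak1 (28.8 ± 1.16) stood at the top with overlapping libraries. Irf3 (10.97 ± 0.435) and Irf1 (10.2 ± 0.891), which also overlapped, came next, then Irf9 (7.96 ± 1.06), Stat2 (6.84 ± 0.244), Ifnar2 (6.51 ± 0.578), Irf7 (2.87 ± 0.339) and Tyk2 (0.585 ± 0.164). Here the lowest Irf1 library (9.160) and the highest Irf9 library (9.153) were barely apart. On this scale Stat2 moved from a level near that of Ifnar1 to one that overlapped Ifnar2, and Irf7 from above Irf9 to below Ifnar2. Tyk2 was the lowest of the 9 in both groups.

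Whether the genes moved by different amounts was tested with ratios of counts within a library, which do not depend on scaling between libraries. Irf3, the constitutive member, served as the reference. It was itself called lower, with a log2 fold change of -0.51, so every ratio to Irf3 also carries that fall. The log2 ratio of Irf7 to Irf3 was 0.53, 0.66 and 0.49 in NC and -1.84, -1.62 and -1.97 in miR-497, a difference of -2.37. Irf7 thus had more counts than Irf3 in each NC library and fewer in each miR-497 library. The ratio to Irf3 differed by -1.48 for Stat2 and by -0.71 for Irf9, and by 0.69 for Ifnar1, 0.87 for Ifnar2 and 0.46 for Jak1, with no overlap between groups. Each of these 6 ratios had p = 0.1 in an exact 2-sided permutation test, the smallest p that 3 against 3 libraries allow, and 0.133 after Benjamini-Hochberg adjustment over the 8 ratios, so none could pass 0.05 in this design. The ratio of Irf1 to Irf3 differed by -0.03 with overlapping groups (exact permutation p = 0.8). Its values were 0.17, 0.15 and 0.06 in NC and 0.23, -0.05 and 0.12 in miR-497, and its sign turned without miR-497 library 2 (0.0462). The ratio of Tyk2 to Irf3 also overlapped between groups (difference 0.46, exact permutation p = 0.2). With Jak1 as the reference, the differences were -2.83 for Irf7, -1.94 for Stat2, -1.17 for Irf9, -0.49 for Irf1 and -0.46 for Irf3. For Ifnar1, Ifnar2 and Tyk2 they were 0.23, 0.41 and 0.0028, smaller than with Irf3 as the reference.

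**Figure D3:**
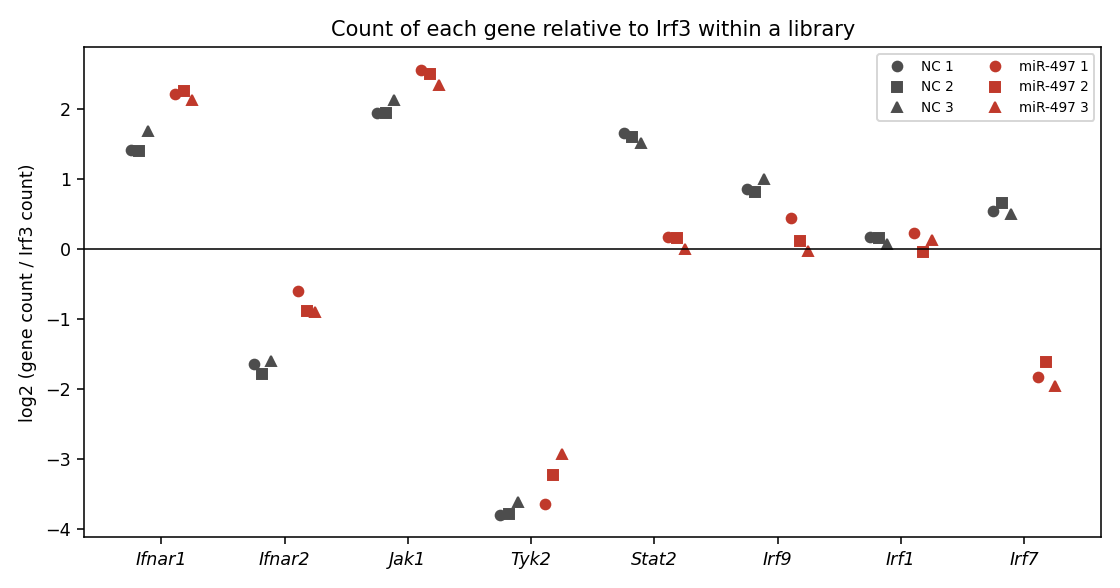
Log2 ratio of each gene's count to the Irf3 count within a library; grey is NC, red is miR-497, and circles, squares and triangles are replicates 1, 2 and 3. The groups are apart for all genes but Tyk2 and Irf1, and Irf7 passes from above 0 in NC to below 0 in miR-497.

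7mer matches to the miR-497-5p seed were held by Stat2, Irf1 and Irf3, which fell, and by Ifnar1, which was slightly higher. Of the 9 genes, 4 held a 7mer and no gene held an 8mer, while 28.1% of the 12859 tested genes with a 3' UTR held a 7mer or 8mer. Stat2, which fell by 1.99, held its 7mer-m8 at base 675 of a 3' UTR of 1476 bases, counted from the stop codon. Irf1 held the same kind at base 649 of 944 and fell by 0.54. Irf3 held its 7mer-A1 at base 11 of 502 and fell by 0.51. Ifnar1 held a 7mer-m8 at base 502 of 2030 and was higher by 0.18, a call that was lost without some single libraries. Irf7 (519 bases) and Irf9 (999 bases), among the 3 genes with at least a 2-fold decrease, held no match in their 3' UTRs, not even the 6 letters GCTGCT. Ifnar2, Jak1 and Tyk2 held only those 6 letters, once each. With the shortest annotated 3' UTR in place of the longest, 2 of the 9 genes held a 7mer, beside 16.6% of all genes.

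**Figure D4:**
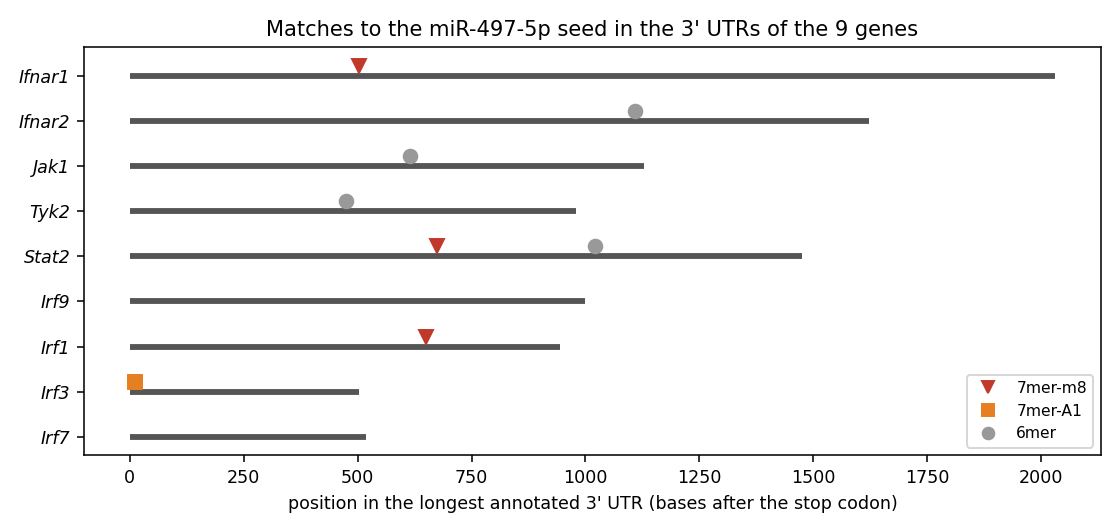
Longest annotated 3' UTR of each gene (bars, in bases after the stop codon) with matches to the miR-497-5p seed; triangles are 7mer-m8, squares 7mer-A1 and circles 6mer matches. Irf9 and Irf7 carry no symbol, and the 7mer of Irf3 lies 11 bases after the stop codon.

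Promoters were read from a RefSeq table of 300-base windows (250 bases before to 50 after the start, GRCm38.p6) in which all 9 genes matched, Irf1 and Irf9 with 2 windows each. The core of the interferon-stimulated response element, searched as GAAA, any 2 bases and GAAA again, was found on either strand in 3.44% of 32851 windows. Among the 9 genes, only Stat2 held it. TTCNNNGAA, the gamma-activated site that Stat dimers bind and that reads alike on both strands, was found in 8.30% of windows and in those of Irf1 (TTCCCCGAA, 90 bases before the start), Ifnar1 (TTCACGGAA, 5 bases before) and Ifnar2 (TTCCTGGAA, 214 bases before). The windows of Stat2 (chr10:128270248-128270547, forward strand), Irf1 (chr11:53769764-53770063, forward strand) and Irf7 (chr7:141266375-141266674, reverse strand) are shown because they stand for a decrease with the response element word, with the gamma-activated word and with neither; the capitals mark the word.
Stat2: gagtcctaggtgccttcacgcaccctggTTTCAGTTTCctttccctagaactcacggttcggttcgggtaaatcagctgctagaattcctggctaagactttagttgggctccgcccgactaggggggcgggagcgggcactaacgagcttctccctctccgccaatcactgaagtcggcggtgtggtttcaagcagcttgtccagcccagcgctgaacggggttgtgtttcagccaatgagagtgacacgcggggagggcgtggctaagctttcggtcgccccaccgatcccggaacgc
Irf1: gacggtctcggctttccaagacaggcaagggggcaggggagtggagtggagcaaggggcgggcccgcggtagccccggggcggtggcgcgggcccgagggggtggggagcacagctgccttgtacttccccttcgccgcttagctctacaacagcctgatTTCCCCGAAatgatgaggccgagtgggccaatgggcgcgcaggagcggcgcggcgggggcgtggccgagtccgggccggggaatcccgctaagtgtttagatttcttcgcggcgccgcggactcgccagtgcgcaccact
Irf7: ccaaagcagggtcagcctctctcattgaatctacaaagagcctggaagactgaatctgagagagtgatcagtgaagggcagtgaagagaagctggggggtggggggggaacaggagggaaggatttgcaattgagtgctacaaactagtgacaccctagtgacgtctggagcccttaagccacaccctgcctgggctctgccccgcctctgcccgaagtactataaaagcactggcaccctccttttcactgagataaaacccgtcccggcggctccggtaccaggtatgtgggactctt
In Stat2 the word lies 222 bases before the start and reads TTTCAGTTTC, the word as it appears on the opposite strand. Neither word is in the windows of Jak1, Tyk2, Irf3, Irf7 or Irf9, which says only that these letters are not in these windows. Both Irf9 windows begin inside the gene as annotated in GENCODE M21, so the bases before that annotated start were not searched. The Irf1 window that is not shown holds neither word.

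The genes that act before, beside and after the 9 were taken from lists written with earlier results of these data known. Counts of calls in these lists stand beside calls of 23.8% higher and 26.0% lower over all genes tested. Of 18 type I interferon genes, the ligands of Ifnar1 and Ifnar2, none had enough reads to be tested and 13 were listed at 0 in all 6 libraries. The beta interferon gene Ifnb1 had 9, 26 and 4 counts in NC and 0, 7 and 0 in miR-497. Ifna4, an alpha interferon gene, had 2, 11 and 5 counts in NC and was listed at 0 in each miR-497 library. Summed over the 18 genes, the level was 0.362, 1.15 and 0.320 CPM in NC and 0.119, 0.220 and 0 CPM in miR-497 (exact 2-sided permutation p = 0.1, the smallest possible). Each NC sum was above each miR-497 sum, on counts of 12, 42 and 9 against 3, 7 and 0. The alpha interferon genes are near-identical copies, so reads that fit several of them may be missing from these sums.

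Most receptor chains of the other interferons were higher, as Ifnar1 and Ifnar2 were. Of the type II and III ligands and receptors, 4 of 7 could be tested, 3 were higher and 1 did not pass, with a median of 0.33. Ifngr1 and Ifngr2, the chains of the gamma interferon receptor, rose by 0.30 (SE 0.0807, edgeR adjusted p = 0.0050) and 0.36 (SE 0.0711, edgeR adjusted p = 0.00048). Ifnlr1, the lambda interferon receptor chain, rose by 1.36 at a low level of 0.528 ± 0.122 CPM in NC (SD, n = 3) (edgeR adjusted p = 0.012); the call was lost without miR-497 library 3 (1.05, adjusted p = 0.0955). Il10rb, the chain it shares with the interleukin-10 receptor, had a log2 fold change of 0.03 and did not pass. Of the Il10rb exon bases, 14.9% are shared with Gm21970 on the same strand. Ifnar2, Il10rb, Ifnar1 and Ifngr2 are neighbours on chromosome 16.

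Among the other Jaks and Stats listed, 6 of 7 were tested, 3 higher and 2 lower, with a median of 0.16. Jak2, a kinase of the gamma interferon receptor, went from 167 ± 4.68 to 84.5 ± 2.57 CPM (SD, n = 3) and thus fell by 0.98 in log2 terms (SE 0.0518, edgeR adjusted p = 1.8e-10). Stat6 and Stat5a, which act for other cytokines, rose by 0.35 (edgeR adjusted p = 7.3e-05) and 0.74 (adjusted p = 0.00049). Stat3 (0.14, adjusted p = 0.041) and Jak3 (-0.31, adjusted p = 0.040) were near the threshold. Stat3 lost its call without NC library 1 (0.09, adjusted p = 0.244), NC library 2 (0.16, adjusted p = 0.106), miR-497 library 1 (0.12, adjusted p = 0.125) or miR-497 library 2 (0.14, adjusted p = 0.0907). Jak3 lost its call without NC library 1 (-0.20, adjusted p = 0.206), miR-497 library 1 (-0.19, adjusted p = 0.198) or miR-497 library 2 (-0.36, adjusted p = 0.0509), which left 1 lower gene in the list. Of the other interferon regulatory factors, 2 of 5 were tested. Irf5, a factor of myeloid inflammatory responses, fell by 1.17 (SE 0.166, edgeR adjusted p = 1.6e-05), with 14.1% of its exon bases facing a gene on the opposite strand, and Irf2, an antagonist of Irf1, had a log2 fold change of 0.06.

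Upstream of Irf3 and Irf7, 8 of 9 adaptors and kinases were tested, 4 higher and 3 lower, with a median of 0.15. Traf3, a ubiquitin ligase of the sensor pathways, went from 31.7 ± 0.252 to 16.8 ± 0.277 CPM (SD, n = 3) and thus fell by 0.91 in log2 terms (SE 0.0771; edgeR adjusted p = 4.9e-08). Tmem173, the adaptor of DNA sensing known as STING, fell by 0.49 (adjusted p = 1.4e-06), and Tbk1, the kinase that activates Irf3, by 0.46 (adjusted p = 1.4e-05). The related kinase Ikbke rose by 0.57 (adjusted p = 0.0038), the RNA-sensing adaptor Mavs by 0.37 (adjusted p = 0.00041), Ticam1 by 0.39 (adjusted p = 0.0070) and Traf6 by 0.30 (adjusted p = 0.0045), all from edgeR. Irak1 had a log2 fold change of -0.01 and did not pass, and Myd88 was listed at 0.

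Negative regulators of the pathway did not share a direction: of 11 tested, 4 were lower and 2 higher, with a median of -0.08. Usp18, which binds Ifnar2 and removes Isg15 from proteins, went from 115 ± 6.52 to 10.1 ± 2.23 CPM (SD, n = 3) and thus fell by 3.51 in log2 terms (SE 0.114; edgeR adjusted p = 5.1e-13). Socs3 fell by 0.43 (adjusted p = 0.0025) and Ptpn11 by 0.38 (adjusted p = 9.2e-05), while Pias4 rose by 0.37 (adjusted p = 0.00010). Socs1, an inhibitor of Jak kinases, fell by 0.55 (adjusted p = 0.027) at 5.82, 7.59 and 6.36 CPM in NC and 5.85, 3.84 and 3.90 CPM in miR-497, so that its groups overlapped. Socs1 lost its call without NC library 2 (-0.43, adjusted p = 0.133), miR-497 library 2 (-0.44, adjusted p = 0.103) or miR-497 library 3 (-0.45, adjusted p = 0.0922). Ptpn1, a phosphatase that acts on Tyk2, rose by 0.16 (adjusted p = 0.018). Ptpn1 lost its call without NC library 1 (0.13, adjusted p = 0.104), NC library 3 (0.16, adjusted p = 0.0545) or miR-497 library 1 (0.15, adjusted p = 0.0589), which left 1 higher gene in the list.

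Listed target genes of ISGF3 and of Irf1 were lower. All 12 listed targets of ISGF3 passed the test as lower, and 11 had at least a 2-fold decrease; their median was -3.17 beside -0.02 over all genes. Isg15, a ubiquitin-like modifier, went from 195 ± 27.8 to 13.6 ± 0.916 CPM (SD, n = 3) and thus fell by 3.85 in log2 terms (SE 0.0965; edgeR adjusted p = 3.8e-14). Ifit3, which binds viral RNA with its relatives, fell by 4.25 (SE 0.0868, adjusted p = 3.5e-15), and Cmpk2, a nucleotide kinase, fell by 3.14 (SE 0.0668, adjusted p = 4.3e-15). Ifi35 fell the least of the 12, by 0.93 (SE 0.0716, adjusted p = 1.7e-08), with 16.8% of its exon bases facing a gene on the opposite strand. The median of the targets was below the log2 fold changes of Stat2 and Irf9. The response element word was present in 6 of the 11 targets with a promoter window. Of 12 listed targets of Irf1 and of gamma interferon, 9 were tested and all 9 were lower, 6 by at least 2-fold, with a median of -1.19. Socs1 is also in this list, and without the libraries named for it 8 passed. Nlrc5, the activator of MHC class I genes, fell by 4.06 (SE 0.277, edgeR adjusted p = 3.6e-09), and the guanylate-binding proteins Gbp3 and Gbp2 had log2 fold changes of -3.14 (SE 0.0859, adjusted p = 8.3e-14) and -2.66 (SE 0.0886, adjusted p = 7.0e-13). Icam1, an adhesion molecule, fell by 0.33 (adjusted p = 0.0046). Cxcl10 and B2m were listed at 0 in all libraries; since nearly every cell makes B2m, a gene listed at 0 in this table cannot be read as not expressed.

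**Figure D5:**
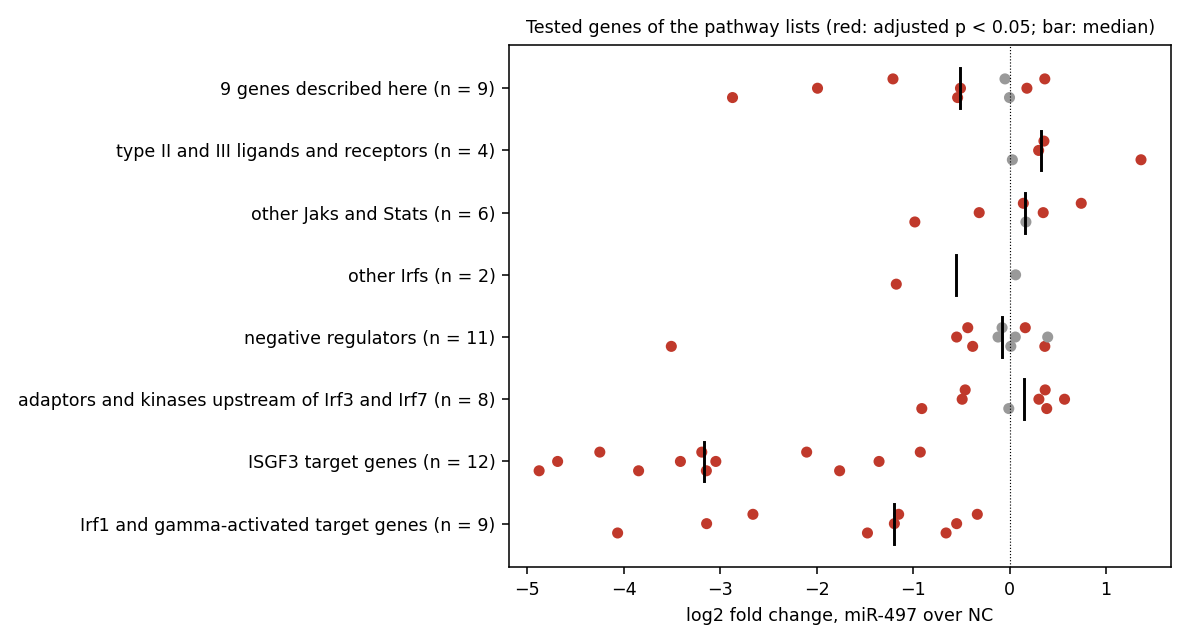
Log2 fold change of miR-497 over NC for every tested gene of each list (points; red with edgeR adjusted p under 0.05, grey otherwise) with the list's median (bar). The ISGF3 targets lie furthest to the left with a median of -3.17, the 9 genes have a median of -0.51, and the other receptors, the other Jaks and Stats and the upstream adaptors have medians above 0.

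The genes whose pattern over the 6 libraries was most like that of Irf7, among 10333 tested genes with a mean log2 CPM of at least 2, were Smarcd2, Znfx1, Spryd3, Ern1 and Prdm4. Their Pearson correlations of log2 CPM with Irf7 lay between 0.9994 and 0.9996. The libraries fall into 2 groups on this measure, so these values mostly record the step between NC and miR-497 and are given as a description. The sizes of the steps differed, with log2 fold changes of -0.41 for Smarcd2, -1.27 for Znfx1, -1.38 for Spryd3, -0.32 for Ern1 and -0.94 for Prdm4, against -2.87 for Irf7.

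Total counts ranged from 25777676 to 36159499 per library, and libraries of a group differed by more than sampling noise. Reads of mitochondrial genes made up 2.03 to 2.15% of counts in NC and 2.94 to 3.77% in miR-497, and their part in the results above was not tested. All 10 endothelial markers, which check the labelled cell type, had enough reads to be tested. Their summed levels were 9471 to 10169 CPM in NC and 8996 to 9524 CPM in miR-497. In NC their mean CPM ranged from 4.17 for Vwf to 3554 for Pecam1. Of the 10, 6 were higher and 3 lower, beside 23.8% and 26.0% of all tested genes. Their log2 fold changes ranged from -0.52 for Pecam1 to 1.03 for Emcn. Leukocyte markers summed to 8.21 to 8.60 CPM in NC and 14.98 to 19.8 CPM in miR-497. Nearly all of that sum was Cd68, a lysosomal protein; Ptprc, which marks all leukocytes, had 4 to 7 counts per library, and Cd3e was listed at 0. Epithelial markers summed to 0.411 to 0.784 CPM in NC and 0.394 to 0.756 CPM in miR-497. Fibroblast and mural markers summed to 153 to 165 CPM in NC and 180 to 216 CPM in miR-497. Mean CPM of Col1a1 went from 61.7 to 110 (log2 fold change 0.84, edgeR adjusted p = 7.4e-09) and that of Pdgfrb from 52.8 to 40.8 (-0.37, adjusted p = 0.0050). Pdgfra, at 43.4 CPM in NC, did not pass (0.10), and Dcn had 0 to 4 counts per library. The part of these markers in the results was not tested.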

How the data were processed

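Poly(A)-selected RNA was sequenced in 6 libraries. The authors deposited raw counts of reads per gene, not normalized. Per the submitters' processing notes, STAR 2.5.4b, featureCounts, Subread 1.6.1, edgeR 3.32.1 and the build GRCm38 were used; their settings, strand handling and annotation are not given in the sources used here. Groups and replicate numbers came from the sample titles. Symbols from GENCODE M21 matched 55141 of 55401 identifiers. Counts were tested with edgeR 4.0.16 in R 4.3.3 (filterByExpr, minimum count 10 and minimum total 15; TMM; quasi-likelihood F-test, 2-sided, group as the only term), with 95% intervals from the same fit. The code was tested on simulated data. The share of simulated 2-fold changes that had to be recovered was lowered after the first run. Overlap of exons was read from the annotation, and sites and ratios were computed in Python 3.11.15. The alternatives were DESeq2 size factors, upper quartile scaling, no filter, a mean count of at least 50, DESeq2 1.42.0, limma voom 3.58.1, a replicate block, leaving out each library, Jak1 as the reference gene and the shortest 3' UTR.

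The 9 genes and all gene lists were chosen with earlier results of these data known. From the lists, genes with the smallest p in each direction and genes against the list's majority were named. Genes taken off the lists of other Jaks and Stats and of leukocyte markers after the values were seen are not reported here.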

Additional observations from a re-analysis of the deposited data

How the results depend on the processing

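Of 965 values recomputed under an alternative, 923 kept their direction and their side of the threshold (counts within 1.5 times). Irf7, Stat2, Irf9, Irf1 and Irf3 were called lower and Ifnar2 higher under every alternative, and Jak1 never passed. Without single libraries Irf7 ranged from -2.98 to -2.78, Stat2 from -2.04 to -1.95, Irf9 from -1.32 to -1.14, Irf1 from -0.59 to -0.47 and Irf3 from -0.54 to -0.47. Ifnar1 ranged from 0.12 to 0.26, so that 1 to 2 of the 9 genes were called higher. Tyk2, which did not pass under any alternative, turned positive with DESeq2 size factors (0.0151), upper quartile scaling (0.0487), a mean count of at least 50 (0.0111) and the DESeq2 Wald test (0.0152), and ranged from -0.22 to 0.18 without single libraries. The ratio of Irf1 to Irf3 ranged from -0.0922 to 0.0462 without single libraries. With the shortest 3' UTR, 2 of the 9 genes held a 7mer. Ifnar1 and Irf1 lost theirs, with shortest 3' UTRs of 918 and 877 bases. The cause of these changes was not tested.

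Replicate numbers were fitted as a block although same-numbered libraries did not deviate together (correlations from -0.133 to -0.0351) and none of the 6 libraries correlated best with its own number. With the replicate block 2 of the 9 genes were higher and 5 lower, as without it; over all genes 3177 were higher and 3563 lower, against 3490 and 3817. Negative regulators called higher went from 2 to 1, since Ptpn1 lost its call (adjusted p = 0.0529), and ranged from 1 to 2 without single libraries. Stat3 also lost its call with the block (adjusted p = 0.0972) and with no filter (0.14, adjusted p = 0.0628). Other Jaks and Stats called lower went from 2 to 1 with upper quartile scaling, since Jak3 lost its call (adjusted p = 0.0928), and ranged from 1 to 2 without single libraries.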
